A study of Mus musculus with 12 samples.

Results

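The Hox genes of the Hoxa, Hoxb, Hoxc and Hoxd clusters were followed in stroma cultured from mouse bone marrow, a layer of attached cells that supports blood cells in culture. Every probe set whose single gene symbol in the platform annotation starts with Hoxa, Hoxb, Hoxc or Hoxd was taken. Only 2 probe sets met this rule, 1 for Hoxa5 (1448926_at) and 1 for Hoxc8 (1452412_at), out of 3109 probe sets tested and 1974 genes with a single symbol. The RefSeq genes of assembly GRCm38.p6 hold both, found by gene ID, among 39 protein-coding Hox genes, of which 37 were not analysed here.

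Hox genes encode homeodomain transcription factors that give cells a positional identity along the body axis. Within a cluster, genes of low paralog number are expressed towards the head and genes of high number towards the tail, in the order in which they lie on the chromosome. Mesenchymal cells of the adult, among them fibroblasts and marrow stroma, keep a Hox code that reflects where in the body they arose. Hoxa5, in the middle of the Hoxa cluster between Hoxa4 and Hoxa6, is known for its part in lung development and in patterning at the border of neck and thorax. Hoxc8, between Hoxc9 and Hoxc6, is known for its part in patterning thoracic vertebrae and ribs and is active in cartilage and bone precursors.

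**Figure D1:**
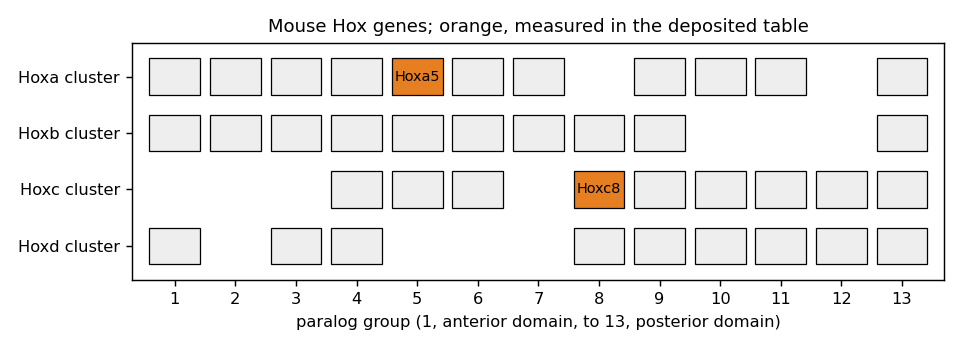
Each box is 1 of the 39 mouse Hox genes, placed by cluster (rows) and paralog group (columns, 1 to 13). The 2 orange boxes, Hoxa5 and Hoxc8, are the genes measured in the deposited table, and no gene of the Hoxb or Hoxd cluster is among them.

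The 12 arrays came from primary stroma of C57BL/6 mice aged 3 to 4 months, with 4 arrays each from wild-type mice, from mice with 1 inactive copy of Crebbp (Crebbp+/-) and from mice with 1 inactive copy of Ep300 (Ep300+/-). Crebbp and Ep300 encode related histone acetyltransferases that serve as transcriptional coactivators. In all groups the marrow had been plated in M5300 medium for 2 weeks, and the resulting layer received 1500 cGy of radiation and fresh medium, so no unirradiated stroma is available for comparison. The labels call the replicates biological and do not describe the mutant alleles, the sex of the mice or which bones gave the marrow. The stroma is a mixture of cells, so fewer cells of a type and less RNA per cell cannot be told apart in these values.

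The array medians lay between 7.98 and 8.43 on the log2 scale. Crebbp itself, 1 probe set, was lower on all 4 Crebbp+/- arrays than on any other array (7.67 to 7.88 against 8.45 to 8.73). Ep300 had no probe set among those analysed here. The transcript Eif2s3y, which is Y-linked, stood at 2.73 and 2.69 on Crebbp+/- arrays 1 and 3 and at 8.41 to 10.84 on the other 10, so these 2 arrays stand apart. Of the stromal markers, Cxcl12, the chemokine that holds blood stem cells in marrow, lay between 13.50 and 14.92, the adhesion molecule Vcam1 between 10.59 and 12.63, and the leptin receptor Lepr between 4.85 and 9.89.

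Hoxc8 was lower in Crebbp+/- stroma than in wild-type stroma, and Hoxa5 was not called in any comparison. The wild-type levels of Hoxc8 on the log2 scale were 5.89, 6.14, 6.65 and 6.66 on arrays 1, 2, 3 and 4. The Crebbp+/- levels were 5.04, 4.35, 4.75 and 5.75 in the same order. Every Crebbp+/- array thus lay below every wild-type array, with a gap of 0.15 between Crebbp+/- 4 and wild-type 1. How many of all probe sets separated in this way was not counted, here or for genes named later. In this comparison 831 probe sets had an unadjusted p under 0.05. The Ep300+/- levels were 6.43, 6.76, 5.73 and 6.78, a range that contains the whole wild-type one, with array 3 below all 4 wild-type arrays and arrays 2 and 4 above them.

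**Figure D2:**
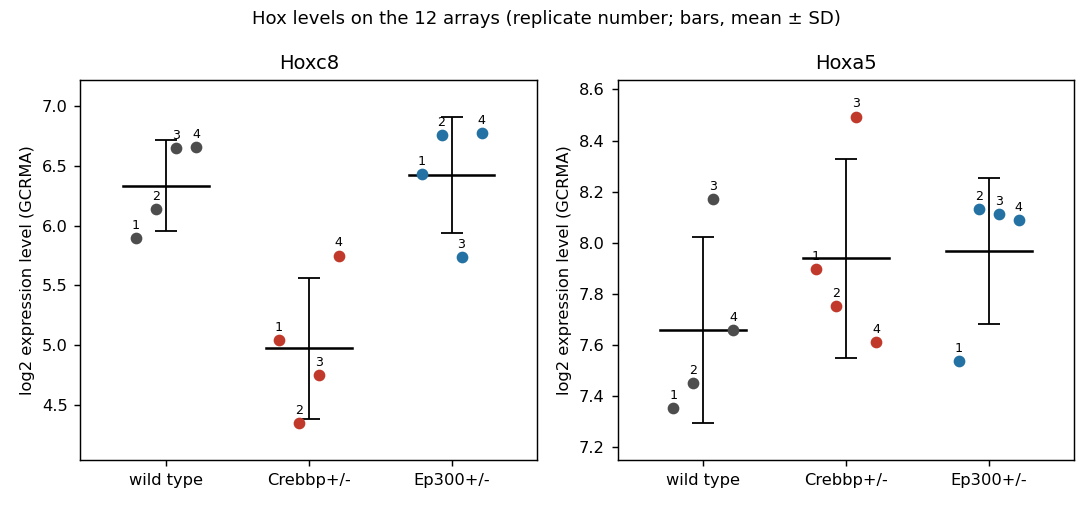
Points are the log2 levels of Hoxc8 (left) and Hoxa5 (right) on each of the 12 arrays, numbered by replicate, with bars for the mean ± SD of 4 arrays. The Crebbp+/- points of Hoxc8 lie between 4.35 and 5.75, below all wild-type points, while the 3 genotypes overlap for Hoxa5.

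In order of mean level, Hoxc8 stood at 6.42 ± 0.49 in Ep300+/- (mean ± SD, n = 4), 6.33 ± 0.38 in wild type and 4.97 ± 0.59 in Crebbp+/-. The log2 difference between Crebbp+/- and wild type was -1.36 (SE 0.35, 95% confidence interval -2.12 to -0.60, limma adjusted p = 0.0382), a level roughly 2.57-fold lower. Hoxc8 was in the table through the groups in which it was high, and 2 Crebbp+/- arrays were under 5, as given below. The size is therefore rough, and the p-values cannot be read apart from that selection. By exact two-sided permutation of the 8 arrays p was 0.0286, which 4 against 4 cannot go below, and 6 such tests were run over the 2 genes and 3 comparisons. In this comparison 6.18% of all probe sets were called, 5.02% higher and 1.16% lower, and Hoxc8 was 1 of the 2 Hox probe sets. By p-value it ranked 157 of 3109, which places it among the weaker of the 192 calls.

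Crebbp+/- was also lower than Ep300+/- for Hoxc8, by a log2 difference of -1.45 (SE 0.35, 95% confidence interval -2.21 to -0.69, limma adjusted p = 0.0306). This is the direct test between the heterozygotes, in which 6.40% of all probe sets were called, 4.89% higher and 1.51% lower. The groups overlapped at 1 point, since Crebbp+/- 4 (5.75) stood 0.016 log2 units above Ep300+/- 3 (5.73). The exact two-sided permutation p, which takes the arrays as unpaired, was 0.0571. Between arrays of the same replicate number, Hoxc8 was lower in Crebbp+/- in 4 of 4 pairs. The log2 differences from Ep300+/- were -1.39, -2.41, -0.99 and -1.03 for numbers 1 to 4, and those from wild type -0.85, -1.80, -1.90 and -0.91. Any pairing with wild type would give this, since those groups did not overlap. With Ep300+/- only a pair of Crebbp+/- 4 and Ep300+/- 3 would not, so the pair count adds little to the levels. The neighbouring pair in the order of levels, Ep300+/- and wild type, did not differ beyond their spread. Their log2 difference was 0.090 (SE 0.35, 95% confidence interval -0.67 to 0.85, limma adjusted p = 0.984, exact permutation p = 0.83). In that comparison limma called 0% of the probe sets, with 126 at an unadjusted p under 0.05. The interval leaves room for a Hoxc8 level from 1.59-fold lower to 1.80-fold higher in Ep300+/-. The 2 comparisons with wild type share the wild-type arrays.

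The call of Hoxc8 was lost when some single arrays were left out, while the difference stayed negative. These fits did not use the pairing by replicate number. With a replicate block and all arrays, the limma adjusted p was 0.0141 against wild type and 0.0105 against Ep300+/-. In those fits 26.1% and 24.4% of all probe sets were called. Against wild type the adjusted p was above 0.05 without wild-type 2, 3 or 4 (0.0856, 0.103 and 0.132), when Crebbp+/- 1, 2 or 3 was left out (0.112, 0.120 and 0.0894) and with Ep300+/- 1 or 2 left out (0.0583 and 0.0549). The log2 difference without any 1 array stayed between -1.62 and -1.16. Leaving out Ep300+/- 1 or 2 left it at -1.36, since those arrays enter this comparison only through the estimate of spread. The calls over all probe sets, 192 with every array, ran from 5 (0.161%) without wild-type 4 to 383 (12.3%) without Crebbp+/- 4. They numbered 30, 48, 9, 7 and 55 without wild-type 2, wild-type 3, Crebbp+/- 1, Crebbp+/- 2 and Crebbp+/- 3, and 125 without Ep300+/- 1. Against Ep300+/- leaving out Crebbp+/- 1, 2 or 3 ended the call (0.0918, 0.104 and 0.0667), as did leaving out Ep300+/- 1, 2 or 4 (0.0786, 0.0722 and 0.0865), and the log2 difference stayed between -1.71 and -1.25. Over all probe sets the calls ran from 2 (0.0643%) without Ep300+/- 1 to 374 without Crebbp+/- 4. Leaving out Crebbp+/- 1 gave 9, Crebbp+/- 2 gave 38 and Crebbp+/- 3 gave 132, while dropping Ep300+/- 2 gave 121, Ep300+/- 3 gave 322 and Ep300+/- 4 gave 59.

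Crebbp+/- 1 and 3, the arrays low in Eif2s3y, had Hoxc8 levels of 5.04 and 4.75, inside the range of the other 2 Crebbp+/- arrays (4.35 and 5.75). Without both, the log2 difference was -1.29 against wild type (limma adjusted p = 0.266) and -1.38 against Ep300+/- (0.210). The whole table then gave 4 and 2 calls, or 0.129% and 0.0643% of the probe sets. These values rest on 2 Crebbp+/- arrays that differ widely from each other.

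**Figure D3:**
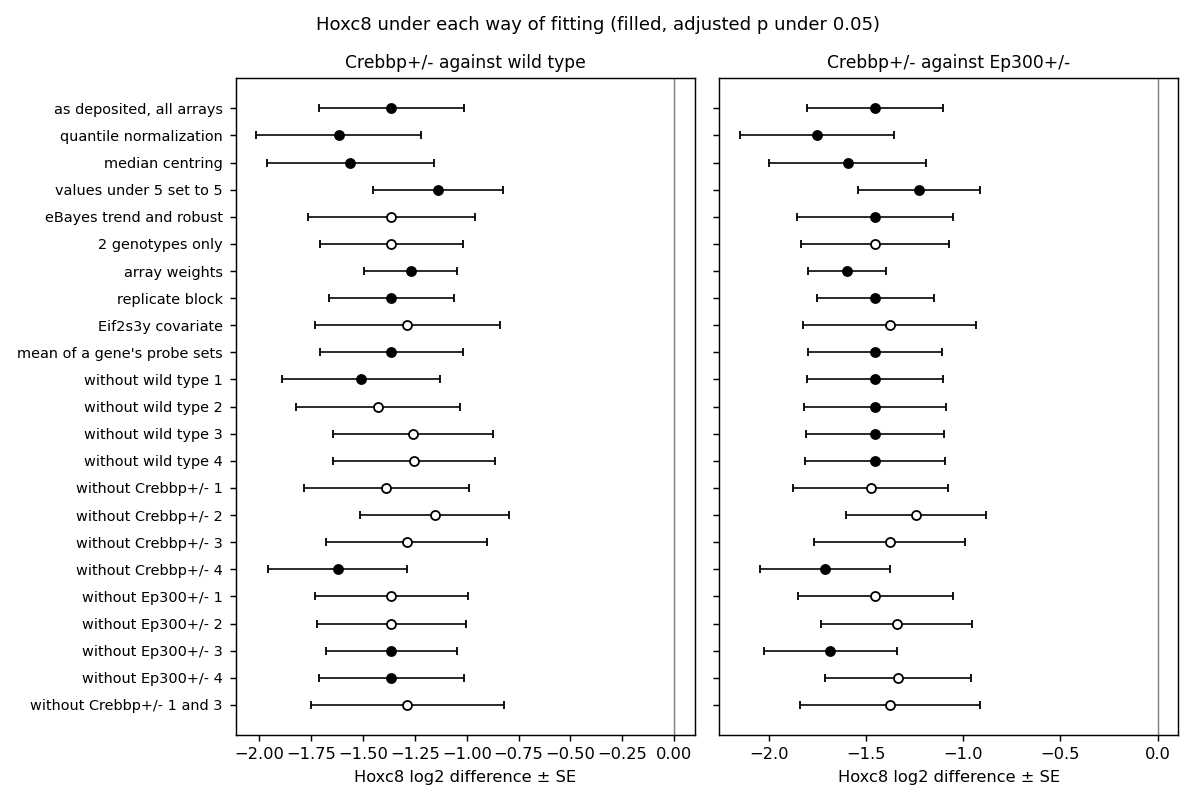
Points are the Hoxc8 log2 difference ± limma SE in Crebbp+/- against wild type (left) and against Ep300+/- (right) under each way of fitting, filled where the adjusted p was under 0.05. All points lie below 0, between -1.75 and -1.14, and filled and open points are mixed.

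The signal of Hoxc8 was low, with a mean over the 12 arrays of 5.91. On 2 arrays, Crebbp+/- 2 and 3, it was under 5, where signal may be background, and its difference can be sized only roughly. With all values under 5 set to 5 the log2 difference from wild type was -1.14 (limma adjusted p = 0.0473). Every probe set of the table reached 6.64, the log2 of 100, on 3 or more arrays. Hoxc8 did so on 4 arrays, 2 wild-type and 2 Ep300+/-, and on 0 Crebbp+/- arrays. It was therefore in the table through the groups in which it was high, and its lower level in Crebbp+/- cannot be read apart from that selection.

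Over all probe sets the median log2 difference between Crebbp+/- and wild type was 0.24, so Hoxc8 went against the shift of the table. Quantile normalization brought that median to 0.022 and gave a Hoxc8 log2 difference of -1.62 (limma adjusted p = 0.0351), and median centring gave -1.56. The split of all 192 calls, 156 higher and 36 lower as deposited, became 120 higher and 72 lower with quantile normalization.

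Hoxa5 reached 6.64 on all 12 arrays and was not called. Its wild-type levels were 7.35, 7.45, 8.17 and 7.66 on the log2 scale on arrays 1 to 4, its Crebbp+/- levels 7.90, 7.75, 8.49 and 7.61, and its Ep300+/- levels 7.54, 8.13, 8.11 and 8.09. The 3 groups overlapped, and replicate 3 was the highest array in both wild type and Crebbp+/-. The means were 7.97 ± 0.29 in Ep300+/-, 7.94 ± 0.39 in Crebbp+/- and 7.66 ± 0.36 in wild type (SD, n = 4), and no neighbours in this order differed beyond their spread.

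The log2 difference of Hoxa5 was 0.28 in Crebbp+/- against wild type (SE 0.28, 95% confidence interval -0.33 to 0.89, limma adjusted p = 0.542, exact permutation p = 0.371). In Ep300+/- against wild type it was 0.31 (SE 0.28, 95% confidence interval -0.30 to 0.92, limma adjusted p = 0.965, exact permutation p = 0.257). Between the heterozygotes it was -0.029 (95% confidence interval -0.64 to 0.58, limma adjusted p = 0.967). A fall of Hoxa5 in Crebbp+/- as large as the measured one of Hoxc8 lies outside the first of these intervals. Hoxa5 was only just variable enough to be in the table, with an interquartile range over the arrays of 0.52 against a lowest value in the table of 0.50, and 6.53% of the probe sets varied less. Across the 12 arrays Hoxa5 and Hoxc8 had a Pearson r of -0.11, and of 0.043 after each genotype's mean was removed.

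The genes whose pattern was most like that of Hoxc8 over the 12 arrays were, in order, Glis2, a zinc finger transcription factor (Pearson r = 0.97), Cyp51, an enzyme of cholesterol synthesis (0.96), Itga10, a collagen-binding integrin subunit of cartilage (0.96), Fdft1, another enzyme of cholesterol synthesis (0.95), and Nap1l1, a histone chaperone (0.94). With genotype means removed these r values were 0.95, 0.88, 0.87, 0.89 and 0.89. The genes were picked by r with Hoxc8 on these same 12 arrays, and Hoxc8 was low in Crebbp+/-. Their differences and p-values in Crebbp+/- cannot be read apart from that pick and lend Hoxc8 no separate support. Itga10 had the larger fall, with levels of 6.77, 6.52, 7.11 and 7.38 on the wild-type arrays and 5.22, 4.68, 4.41 and 5.73 on the Crebbp+/- arrays. Its log2 difference was -1.93 (SE 0.33, limma adjusted p = 0.0129), and like Hoxc8 it was nearest to wild type on Crebbp+/- 4. It reached the level of 6.64 on 3 wild-type, 3 Ep300+/- and 0 Crebbp+/- arrays, so it too was in the table through the groups in which it was high, and 2 of its Crebbp+/- values were under 5. Glis2, Cyp51, Fdft1 and Nap1l1 had log2 differences of -0.77, -0.96, -0.77 and -0.59 that did not pass the test (limma adjusted p from 0.0746 to 0.165).

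The most opposite patterns belonged to S1pr1, a receptor for the lipid sphingosine 1-phosphate (Pearson r = -0.96), Clic4, an intracellular chloride channel protein (-0.95), and Upp1, which breaks down uridine (-0.95). Upp1 stood at 7.47, 7.33 and 7.11 on Crebbp+/- 1, 2 and 3 and at 5.82 or less on the other arrays, and its wild-type mean of 4.65 may be background. It was called higher in Crebbp+/- (limma adjusted p = 0.0135), but it was in the table through those 3 arrays alone, and the size of its difference is not given for these reasons. S1pr1 and Clic4 had log2 differences of 1.02 and 0.71 (limma adjusted p = 0.0987 and 0.0674). Of 1973 other genes, 24 had an r above 0.9 with Hoxc8 and 56 an r below -0.9. These correlations describe 12 arrays that share genotype and replicate number, and no test was made of them. The opposite genes too were picked by r on these arrays, so their rise in Crebbp+/- cannot be read apart from that pick.

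**Figure D4:**
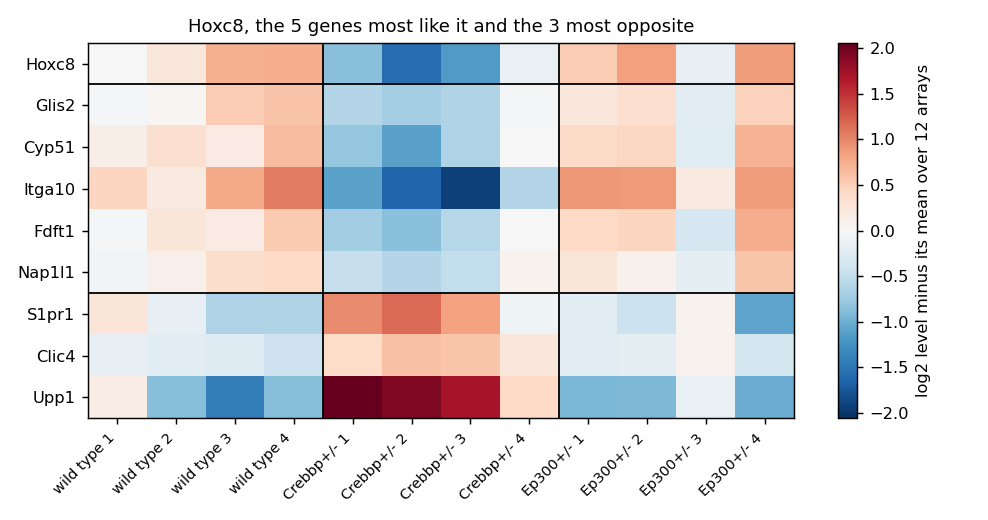
Colours give the log2 level of Hoxc8 and of the 5 most like and 3 most opposite genes on each array, minus each gene's mean over the 12 arrays. Hoxc8 and the like genes are below their means on Crebbp+/- 1, 2 and 3 and nearer to them on Crebbp+/- 4, where Itga10 is still at -0.60, and the opposite genes are above their means on the first 3.

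Fewer genes followed Hoxa5, 5 with an r above 0.9 and 1 below -0.9. The most like were Tra2a, a splicing regulator (Pearson r = 0.96), Wsb2 (0.93), Itpkb, an inositol phosphate kinase (0.92), Arhgap17 (0.92) and the scaffold protein Spag9 (0.91). The most opposite were Tifab (-0.96), Eif4ebp1, a repressor of translation initiation (-0.86), and the helicase Dhx9 (-0.84). None of these 8 passed the test in any of the 3 comparisons (limma adjusted p from 0.392 to 0.975).

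Few partners and regulators of Hox proteins were in the table. Over all probe sets 6.18% were called in Crebbp+/- against wild type, 0% in Ep300+/- against wild type and 6.40% between the heterozygotes. An absence of calls among the few measured partners, regulators, patterning genes and retinoic acid genes is near those shares and is no result about them. Of 11 cofactors listed, among them the Meis, Pbx and Pknox proteins that bind DNA together with Hox proteins, only Smad1 was measured. Smad1, a signal transducer of bone morphogenetic proteins that is known to bind Hoxc8, did not pass the test (log2 difference 0.96 in Crebbp+/- against wild type, SE 0.27, limma adjusted p = 0.0568). Its levels were 7.79 to 8.21 on the wild-type arrays, and 9.28, 9.08, 8.99 and 8.19 on Crebbp+/- 1, 2, 3 and 4, so Crebbp+/- 4 lay within the wild-type range.

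Of 28 regulators of Hox loci, 2 were measured and neither passed in any comparison. Kmt2a, the trithorax-group methyltransferase that maintains Hox expression, had log2 differences of -0.13 in Crebbp+/- and 0.13 in Ep300+/- against wild type. Kdm6b, which removes the repressive mark laid down by polycomb proteins, varied widely, with means of 6.28 ± 0.63 in wild type, 7.59 ± 2.25 in Crebbp+/- and 8.23 ± 1.88 in Ep300+/- (SD, n = 4).

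Of 44 other homeobox and T-box patterning genes of mesenchyme, 3 were measured and none passed in any comparison. Prrx2, a homeobox gene of limb and face mesenchyme, came nearest. It stood at 7.34, 7.74, 7.83 and 7.82 on the wild-type arrays, at 5.51, 6.45, 5.70 and 7.36 on the Crebbp+/- arrays, and at 7.82, 7.76, 6.49 and 7.50 on the Ep300+/- arrays. Crebbp+/- 1, 2 and 3 were below all wild-type arrays and Crebbp+/- 4 was not (log2 difference -1.43, SE 0.41, limma adjusted p = 0.0602). As with Hoxc8, array 3 was the lowest of the Ep300+/- arrays. Its relative Prrx1 had a log2 difference of 0.53 (limma adjusted p = 0.278), and Irx3, of the Iroquois homeobox family, -0.51 (0.271).

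Retinoic acid switches on Hox genes in the embryo, and 4 of 19 genes of its pathway were measured, with 0 passing in any comparison. Aldh1a1, which makes retinoic acid, lay between 9.13 and 11.37 on the wild-type arrays, between 8.62 and 8.93 on the Crebbp+/- arrays and between 9.60 and 11.24 on the Ep300+/- arrays. The Crebbp+/- arrays were thus below all others, with a log2 difference of -1.29 from wild type (SE 0.46, limma adjusted p = 0.105) and -1.59 from Ep300+/- (0.0560). Aldh1a2, a second enzyme of that step, Crabp2, which carries retinoic acid to its receptor, and Rbp4, the blood carrier of retinol, had log2 differences of 0.37, -0.75 and -0.55 against wild type.

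Endothelial markers were higher in Crebbp+/- stroma, where Hoxc8 was lower. Of 16 endothelial markers, 14 were measured, and 8 rose in Crebbp+/- against wild type and 14 against Ep300+/- (median log2 differences 1.92 and 2.33, against 0.28 and 0.082 over all genes). Among all probe sets the shares called higher were 5.02% and 4.89%. Averaged over the members, each centred on its mean over the 12 arrays, the endothelial level was 1.97, 1.63, 1.93 and 0.0024 on Crebbp+/- 1 to 4. It was 0.37, -0.82, -0.75 and -0.74 on the wild-type arrays and -1.07, -0.72, -0.41 and -1.40 on the Ep300+/- arrays. Crebbp+/- 4, the Crebbp+/- array with the highest Hoxc8, had the lowest endothelial level of its group. Wild-type 1 and Ep300+/- 3, the lowest in Hoxc8 of their groups, had the highest. The reticular and mesenchymal stromal list had its extremes on the same arrays (0.42 on wild-type 1, 0.51 on Ep300+/- 3, -0.54 on Crebbp+/- 4). Among Crebbp+/- 1, 2 and 3, and among wild-type 2, 3 and 4, the endothelial level was instead higher where Hoxc8 was higher. Of the 14, 5 (Kdr, Tie1, Cldn5, Icam2 and Erg) reached 6.64 on under 3 arrays outside Crebbp+/- and so were in the table through that group. Their rise cannot be read apart from that selection. Tie1 and Erg are among the 8, and all 5 enter the 14, the medians and the array means. Among markers that reached 6.64 on all 12 arrays, Pecam1, Cdh5, Emcn, Esam and Egfl7 were called against wild type. Plvap and Eng, which also reached it, were not. No marker was at 0, and the lowest values were 3.28 for Icam2 and 3.58 for Erg. The part of endothelial cells in the Hoxc8 difference was not tested.

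**Figure D5:**
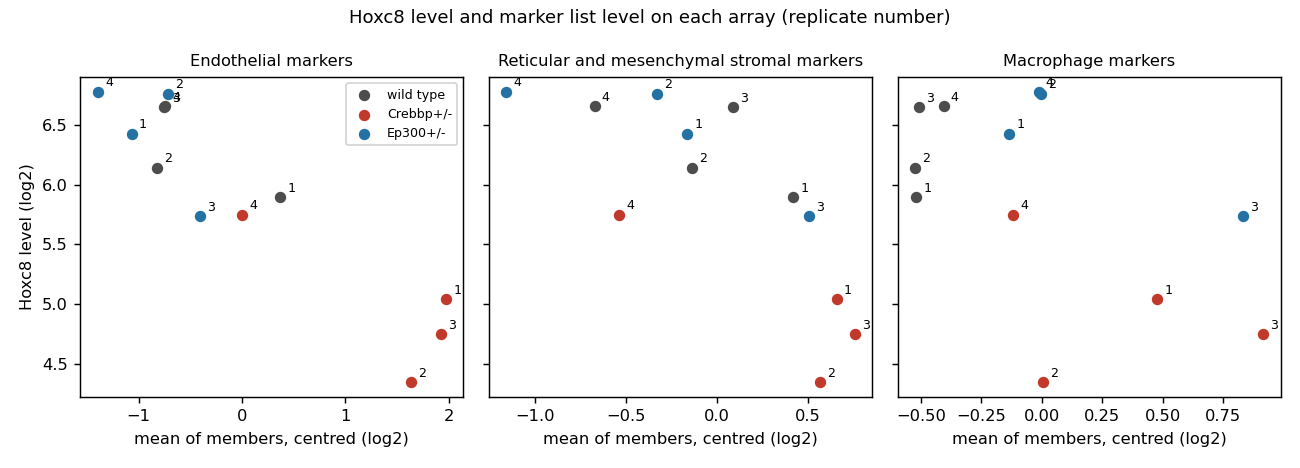
The Hoxc8 log2 level (vertical) is plotted against the centred mean level of the endothelial (14 genes), reticular and mesenchymal stromal (11 genes) and macrophage (3 genes) markers on each numbered array. Crebbp+/- 1, 2 and 3 lie apart at the lower right of the endothelial panel, and Crebbp+/- 4 lies beside Ep300+/- 3 and wild-type 1. Of the 14 endothelial genes, 5 were in the table through the Crebbp+/- arrays.

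No measured reticular or mesenchymal stromal marker was called lower in Crebbp+/-. Of 21 listed, 11 were measured, 0 passed against wild type and 10 of the 11 differences were positive. Their median was 0.40, and the median over all genes, 0.28, was positive too. Against Ep300+/- only Eng, also an endothelial marker, rose. Centred list means ran from -0.54 to 0.76 in Crebbp+/-, from -0.67 to 0.42 in wild type and from -1.16 to 0.51 in Ep300+/-, so the groups overlapped. Within Crebbp+/-, arrays 1, 2 and 3 stood at 0.66, 0.57 and 0.76 and array 4 at -0.54. Wild-type 1 and Ep300+/- 3 were the highest of their groups, as in the endothelial list. The part of these cells in the Hoxc8 difference was not tested.

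Among all probe sets 1.16% were called lower and 5.02% higher in Crebbp+/- against wild type, which is the background for the counts that follow. In the skeletal lineages, in which Hoxc8 is active in development, 1 of 3 measured osteoblast markers fell, the bone matrix protein Ibsp (log2 difference -1.75, limma adjusted p = 0.0293). Alpl and Pth1r had log2 differences of -1.03 and -0.66 that did not pass. Of 3 measured cartilage markers, Comp fell by 2.71 on the log2 scale (limma adjusted p = 0.00155) and S100b by 1.71 (0.00375). Col2a1, the main collagen of cartilage, had a positive log2 difference of 0.88 (0.199). S100b reached 6.64 on 4 wild-type, 4 Ep300+/- and 0 Crebbp+/- arrays, so it was in the table through the groups in which it was high. Its fall, and its part in the list mean, cannot be read apart from that selection. The centred means of both lists were lower on every Crebbp+/- array than on every wild-type array. They ran from -0.95 to -0.32 against 0.27 to 0.79 for the osteoblast list and from -1.07 to -0.54 against 0.26 to 0.58 for the cartilage list. On Ep300+/- arrays they ran from -0.35 to 0.70 and from -0.14 to 0.67, so Ep300+/- overlapped Crebbp+/- in the osteoblast list only. On Crebbp+/- arrays the centred mean of the smooth muscle and pericyte list ran from 0.36 to 1.04 against -0.83 to 0.19 in wild type, with 2 of 5 measured members, Rgs5 and Mcam, rising. The macrophage list lay between -0.12 and 0.92 against -0.52 and -0.41, with Cd163 rising, 1 of 3 measured. On Ep300+/- arrays the pericyte list ran from -0.91 to -0.041, and the macrophage list from -0.14 to 0.83, which overlapped Crebbp+/-. The adipocyte list overlapped between the groups, with Angptl4 rising and Cd36 falling among 9 measured. How many probe sets over the whole table separated Crebbp+/- from wild type in this way was not counted. The part of these cell types in the Hoxc8 difference was not tested.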

How the data were processed

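Bulk RNA of 12 cultures was hybridized to Affymetrix arrays, 4 per genotype. The deposited values are log2 levels from GCRMA, which the authors used per the submitters' processing notes and which corrects background, normalizes between arrays and summarizes each probe set. No source used here gives its version. The values are relative, so levels of different probe sets cannot be compared. The deposited table held 3127 rows, of which 18 control probe sets were left out. Each of the others had an interquartile range over the arrays no smaller than 0.50 and reached the log2 of 100 on 3 or more arrays, a filter read from the values. Of the 3109 probe sets, 2486 had 1 symbol, 176 several and 447 none. Assembly GRCm38.p6 was used for names and gene order only.

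No further normalization was applied. Limma 3.58.1 in R 4.3.3 (lmFit, eBayes) was fitted to the 12 arrays together, 1 mean per genotype. Tests were two-sided, adjusted over the 3109 probe sets by Benjamini-Hochberg, with calls at an adjusted p under 0.05. The script was tested on simulated data. Lists used the probe set of highest mean per gene. Named were both Hox genes, list members by smallest p, and the 5 most like and 3 most opposite genes by Pearson r. The members and lists were chosen with earlier results of these data known. The number of arrays limits the precision, and whether the replicates came from separate mice is known only from the word biological, so p-values measure the spread between these arrays.

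Replicate numbers recur in the genotypes. After genotype means were removed, Crebbp+/- arrays correlated with the wild-type array of the same number at r from 0.448 to 0.603 and with that of Ep300+/- at r from 0.294 to 0.513, so the numbers were taken to pair these arrays. For Ep300+/- and wild type the lowest r was 0.059, under the 0.1 required. The main fit and the permutation tests did not use the pairing. Alternatives were median centring, quantile normalization, a filter on means of at least 6, a floor at 5, eBayes with trend and robust, array weights, a fit of 2 genotypes only, the replicate block, an Eif2s3y covariate, 1 value per gene and leaving out each array. Leaving out Crebbp+/- 1 and 3 together was added after seeing the data.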

Additional observations from a re-analysis of the deposited data

Results flagged for a closer look

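In groups of 4 arrays, 42 sets of values were checked for an array far from the other 3, and 5 had one, where chance gives about 1 in 20. Hoxa5 on Ep300+/- 1 was 7.54, against 8.09 to 8.13 on the other Ep300+/- arrays. The reticular and mesenchymal stromal list had a centred mean of -0.54 on Crebbp+/- 4, against 0.57 to 0.76 on the other Crebbp+/- arrays. The endothelial list stood at 0.37 on wild-type 1, against -0.82 to -0.74. The macrophage list, of 3 measured genes, stood at -0.41 on 1 wild-type array, against -0.52 to -0.51, and at 0.83 on Ep300+/- 3, against -0.14 to -0.0027.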

How the results depend on the processing

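Hoxc8 was lower in Crebbp+/- under every alternative that could be fitted. Against wild type it missed the threshold, and 0 Hox probe sets were called, with eBayes trend and robust (-1.36, limma adjusted p = 0.0633), 2 genotypes only (-1.36, 0.0534), the Eif2s3y covariate (-1.29, 0.219) and without Crebbp+/- 1 and 3 (-1.29, 0.266). Against Ep300+/- it did so with 2 genotypes only (-1.45, 0.0844), the Eif2s3y covariate (-1.38, 0.179) and without Crebbp+/- 1 and 3 (-1.38, 0.210). The Eif2s3y covariate set apart Crebbp+/- 1 and 3 alone, so it gave the same log2 differences as leaving them out. Both fits rest on Crebbp+/- 2 and 4 and are not separate checks. Why the calls were lost was not tested. The filter on a mean of at least 6 removed Hoxc8 and so left 0 Hox calls in both. Leaving out each array gave Hoxc8 log2 differences from -1.62 to -1.16 against wild type, from -1.71 to -1.25 against Ep300+/- and, between Ep300+/- and wild type, from -0.056 to 0.32, which crosses 0, with 0 to 1 Hox call in the first 2 and 0 in the last. Hoxa5 in Crebbp+/- against Ep300+/- ran from -0.21 to 0.079 in these fits, also crossing 0. With a replicate block the Hoxc8 calls stayed, with adjusted p = 0.0141 against wild type and 0.0105 against Ep300+/-, and no Hox call changed, while 812 and 760 probe sets (26.1% and 24.4%) were called. The estimation of array weights stopped before it converged. The low signal of Hoxc8 limits how well its difference can be sized.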
